A study of Mus musculus with 4 samples.

Results

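RNA from mouse chromosome 6 was followed gene by gene along the chromosome in 4 libraries of C3H10T1/2 cells. The genes were chosen by position and by their summed reads: 776 of the 3130 annotated chromosome 6 genes had at least 100 reads over the libraries. Of the rest, 1462 had no read in any library and 892 had 1 to 99 reads. The member with the fewest reads had 100, and the best-read gene left out had 99. The 776 genes begin at position 3325742 and end at 149563329 (mm10), and 587 of them code for proteins, 75 are long non-coding RNAs of several annotation types, 36 are pseudogenes and 78 are of other types. The comparison set was the 13230 genes of the other 18 autosomes that passed the same read minimum. Because chromosome 6 was picked for its shift in these same libraries, its ratios to WT chose it, and they are given as a description with no test.

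C3H10T1/2 is an established line of mouse mesenchymal stem cells that can be driven to fat, cartilage and muscle fates. WT was the unedited line, with 37685798 counted reads. PRDX1MT cells carried a CRISPR edit at the splice acceptor of Prdx1 intron 5, under a genotype label of PRDX1-KO, and gave 27570136 reads. The group with knockouts of both DNMT3A and DNMT3B (DKO) held 2 clones, clone 1 with 34901511 reads and clone 5 with 27789693. Whether the DKO clones carry an edit of Prdx1 as well is not stated in the labels. The WT and PRDX1MT groups have 1 library each, so no difference from WT has a replicate check and intervals cover counting error only. What is particular to an edit and what is particular to a clone cannot be told apart.

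Prdx1 on chromosome 4 read 397 counts scaled to library size (CPM) in WT, 30.6 in PRDX1MT, 397 in clone 1 and 335 in clone 5. Dnmt3a read 43.4, 79.3, 31.8 and 26.2 CPM in the same order and Dnmt3b 3.26, 3.67, 2.87 and 2.06, so RNA of both methyltransferase genes was still present in the DKO clones. What each edit does to these RNAs was not tested. Collagen genes and Vim were abundant in every library, and 16 markers of other cell types summed to 6.9 to 12.3 CPM. The surface marker Thy1 read 28.8 CPM in WT and 0.767 to 1.40 CPM in the edited libraries, and Nt5e (CD73) stayed under 1 CPM in all 4.

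RNA output from a chromosome follows, on average, the number of copies of its genes. A gain or loss of a whole chromosome or of a stretch of one moves many neighbouring genes by a similar factor in the same direction, whereas the regulation of single genes need not follow position. A median over many consecutive genes is little affected by the few that are strongly regulated, which is why it is read along a chromosome. DNA copy number was not analysed here, so "shift" below means a ratio of RNA levels and nothing more. Chromosome 6 also carries the Hoxa homeobox cluster, the imprinted Peg10-Sgce domain and the imprinted gene Mest, of which only the copy inherited from the father is normally active, and the natural killer receptor complex.

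Sequences before the start sites are shown for 3 genes that had over 100 reads in WT and none in any edited library, and for 1 gene of a run that was high in clone 1 alone, because CpG sites are the substrate of the methyltransferases named in the DKO genotype. The CG pairs are in capitals, 5′ to 3′ on the gene's strand; CG reads the same on both strands. The sequences are from RefSeq (GRCm38.p6), of which 534 of the 776 members were matched, and the Arhgef5 stretch stops where the annotated gene begins.
Ptprz1, plus strand, chr6:22875252-22875501: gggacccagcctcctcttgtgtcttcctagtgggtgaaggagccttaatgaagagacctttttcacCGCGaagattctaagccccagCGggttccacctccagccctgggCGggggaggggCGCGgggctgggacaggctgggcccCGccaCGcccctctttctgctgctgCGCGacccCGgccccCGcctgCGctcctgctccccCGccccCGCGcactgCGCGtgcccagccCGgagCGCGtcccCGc
Arhgef5, plus strand, chr6:43265394-43265581: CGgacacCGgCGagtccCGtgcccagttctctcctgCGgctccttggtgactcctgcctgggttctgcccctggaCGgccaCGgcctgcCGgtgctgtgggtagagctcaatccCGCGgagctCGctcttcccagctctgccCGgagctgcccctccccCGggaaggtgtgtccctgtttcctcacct
Kcna6, minus strand, chr6:126740675-126740924: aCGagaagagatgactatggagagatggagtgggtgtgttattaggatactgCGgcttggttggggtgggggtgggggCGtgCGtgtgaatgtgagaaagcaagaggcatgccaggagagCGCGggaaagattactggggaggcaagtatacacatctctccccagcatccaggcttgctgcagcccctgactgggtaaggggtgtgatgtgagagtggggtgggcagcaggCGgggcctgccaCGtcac
Nat8f5, minus strand, chr6:85820973-85821222: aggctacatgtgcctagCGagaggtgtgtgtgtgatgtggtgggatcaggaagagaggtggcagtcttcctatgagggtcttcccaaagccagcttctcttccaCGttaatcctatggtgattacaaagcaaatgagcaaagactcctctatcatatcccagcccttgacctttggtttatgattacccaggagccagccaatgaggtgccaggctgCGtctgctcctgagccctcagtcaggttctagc
Over the 250 bases before the RefSeq start, Ptprz1 held 22 CG, Arhgef5 20, Kcna6 8 and Nat8f5 3. The median was 6 over 32851 promoters of the genome and 14 over 701 promoters of chromosome 6 members. At least 1 CG was present in 92.1% of all promoters. As many CG as in Ptprz1 were found in 14.8% of all promoters, as many as in Arhgef5 in 17.95%, as many as in Kcna6 in 43.0% and as many as in Nat8f5 in 71.0%. Ptprz1 and Arhgef5 held more CG than the median chromosome 6 promoter, and Kcna6 and Nat8f5 fewer. Methylation was not measured in these files.

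Chromosome 6 genes were lower than in WT in PRDX1MT and higher than in WT in both DKO clones. Each ratio is a log2 ratio of scaled CPM, centred so that the median of the other 18 autosomes is 0. The median over the 776 genes was −0.26 in PRDX1MT (0.834-fold), 0.25 in clone 1 (1.19-fold) and 0.29 in clone 5 (1.22-fold), a DKO mean of 0.27 ± 0.029 (SD, n = 2 clones). In PRDX1MT this was the lowest of the 19 autosomes, the others running from −0.19 on chromosome 10 to 0.21 on chromosome 9. In clone 1 only chromosome 18, at 0.27, was higher, and in clone 5 only chromosome 16, at 0.32. The shift of chromosome 6 was therefore at or near the end of the range of the autosomes in each library, but other autosomes came close to it in both clones. The X chromosome, which is outside this ranking, read −0.28 in PRDX1MT, below chromosome 6, and −0.13 and −0.16 in clones 1 and 5.

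**Figure D1:**
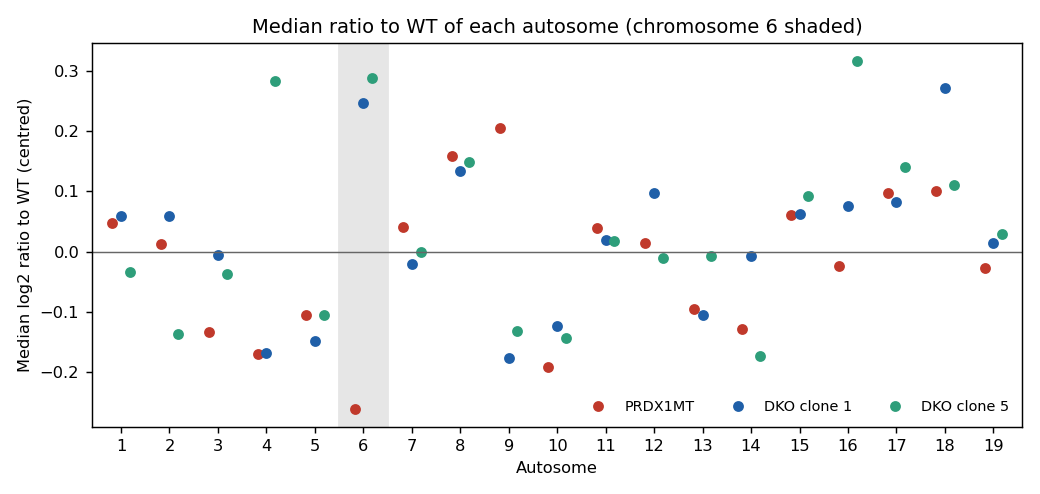
Median centred log2 ratio to WT (vertical axis) of the genes of each of the 19 autosomes (horizontal axis), 1 point for each edited library. Chromosome 6, shaded, has the lowest PRDX1MT point at −0.26 and DKO points at 0.25 and 0.29, each exceeded by 1 other autosome.

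The shift was carried by many genes and not by a few abundant ones. In PRDX1MT 33.0% of the 776 genes lay above 0, in clone 1 64.3% and in clone 5 67.8%, where the other autosomes stand at 50.0% by centring. The middle 50.0% of chromosome 6 genes ran from −0.71 to 0.16 in PRDX1MT, from −0.21 to 0.74 in clone 1 and from −0.14 to 0.66 in clone 5, so single genes overlapped widely with those of other autosomes. A gene below WT in PRDX1MT and above it in both clones was seen 190 times, or 24.5% of the chromosome, against 6.30% of the 13230 genes elsewhere. The opposite arrangement was seen in 10 genes, or 1.29%, against 6.64% elsewhere. These 3 ratios share the WT library, so a WT value that is high or low by itself moves them together.

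Ratios between edited libraries do not use WT. Clone 1 against PRDX1MT had a chromosome 6 median of 0.51, the highest of the 19 autosomes, with the others between −0.36 and 0.14. Clone 5 against PRDX1MT gave 0.53, again the highest, with chromosome 4 next at 0.39. Clone 5 against clone 1 gave 0.01, the 7th value from the top.

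The share of autosomal reads, on raw counts, gave the same order of libraries. Chromosome 6 took 4.56% of autosomal reads in WT (95% exact interval 4.56 to 4.57), 3.53% in PRDX1MT, 5.99% in clone 1 and 6.20% in clone 5. The collagen gene Col1a2 alone held 261927 of the 1630716 chromosome 6 reads of WT. Without it the shares were 3.86%, 2.75%, 5.20% and 4.84% in the same order, so clone 5 then lay below clone 1. Over protein-coding genes alone the shares were 5.24%, 4.68%, 6.53% and 7.23%. The direction of the chromosome 6 median was the same in the upper, middle and lower class of expression level, in genes of short and long span, on both strands, in protein-coding and other genes, and in genes with and without an overlapping neighbour. Against the same class of genes on the other autosomes it ran from −0.32 to −0.17 in PRDX1MT, from 0.14 to 0.29 in clone 1 and from 0.21 to 0.36 in clone 5.

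The shift reached most of the chromosome but not evenly. The chromosome was read in 752 windows of 25 consecutive genes. The running median was above 0 in 10.9% of the windows in PRDX1MT, in 83.1% in clone 1 and in 93.5% in clone 5, against 49.0%, 51.5% and 47.4% of the windows on other autosomes. The lowest window of PRDX1MT was −1.003, from Gm43197 to Col28a1 (3.3 to 8.0 Mb), and its highest was 0.21, from Plekhg6 to Itfg2 (125.4 to 128.4 Mb). In clone 1 the highest window was 1.34, from Gm7507 to Add2 (84.8 to 86.0 Mb), and the lowest −0.31, from Tigar to Styk1 (127.1 to 131.3 Mb). In clone 5 the highest was 0.69, from Gm26640 to Slc4a5 (73.0 to 83.2 Mb), and the lowest −0.45, at the start of the chromosome. These extremes moved with the settings. With windows of 15 genes the highest clone 1 window was 2.86 and the lowest −1.34, and with genes free of overlap they were 0.66 and −0.16, the highest then standing beside 0.67 in clone 5. On the other autosomes windows of 25 genes ran from −1.33 to 1.06 in PRDX1MT. They ran from −0.76 to 1.26 in clone 1 and from −1.07 to 0.92 in clone 5. Only the highest clone 1 window of chromosome 6 lay outside these ranges at 25 genes. Several of its genes passed the read minimum only through their clone 1 reads. Windows overlap and share genes, so their number is not a number of independent values.

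**Figure D2:**
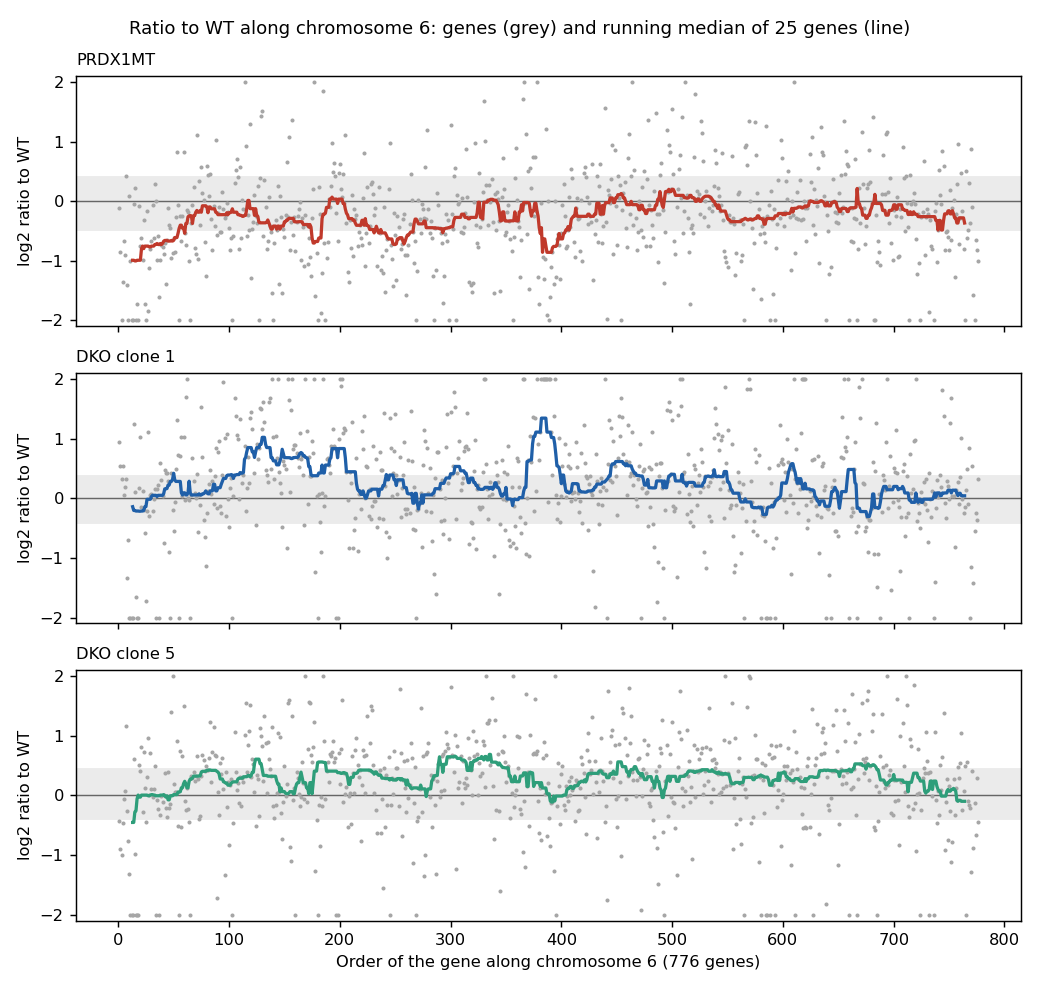
Centred log2 ratio to WT (vertical axes) of the 776 chromosome 6 genes in their order along the chromosome (horizontal axis), 1 panel for each edited library; grey points are genes, drawn at 2 or −2 where they lie beyond, lines are running medians of 25 genes, and the band runs from the 5th to the 95th percentile of windows on the other autosomes. The PRDX1MT line lies mostly below 0 with its lowest value of −1.003 at the start, and the clone 1 line peaks at 1.34 over the Nat8 genes.

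Divided into 15 consecutive blocks of 10 Mb, 14 blocks had a median below 0 in PRDX1MT, 13 a median above 0 in clone 1 and 12 in clone 5. On the other autosomes 58.9% of 231 blocks were below 0 in PRDX1MT, and 45.9% and 38.5% were above 0 in clones 1 and 5. The first block read −0.82 in PRDX1MT, −0.08 in clone 1 and −0.16 in clone 5 over 34 genes, and the second −0.69, 0.25 and −0.04 over 24 genes. From there PRDX1MT blocks ran between −0.53 and 0.18, with the only value above 0 in the 11th block (100 to 110 Mb, 24 genes). Clone 1 was highest in the fourth block and the fifth (30 to 50 Mb), at 0.68 and 0.61, where clone 5 read 0.27 and 0.39. The seventh block, with only 11 genes, was below 0 in all 3 libraries. The last block read −0.30, 0.04 and 0.07 in PRDX1MT, clone 1 and clone 5. Over the blocks the SD of the medians was 0.25 in PRDX1MT, 0.22 in clone 1 and 0.22 in clone 5. On the other autosomes it was 0.26, 0.21 and 0.23, so unevenness of this size was not particular to chromosome 6.

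**Figure D3:**
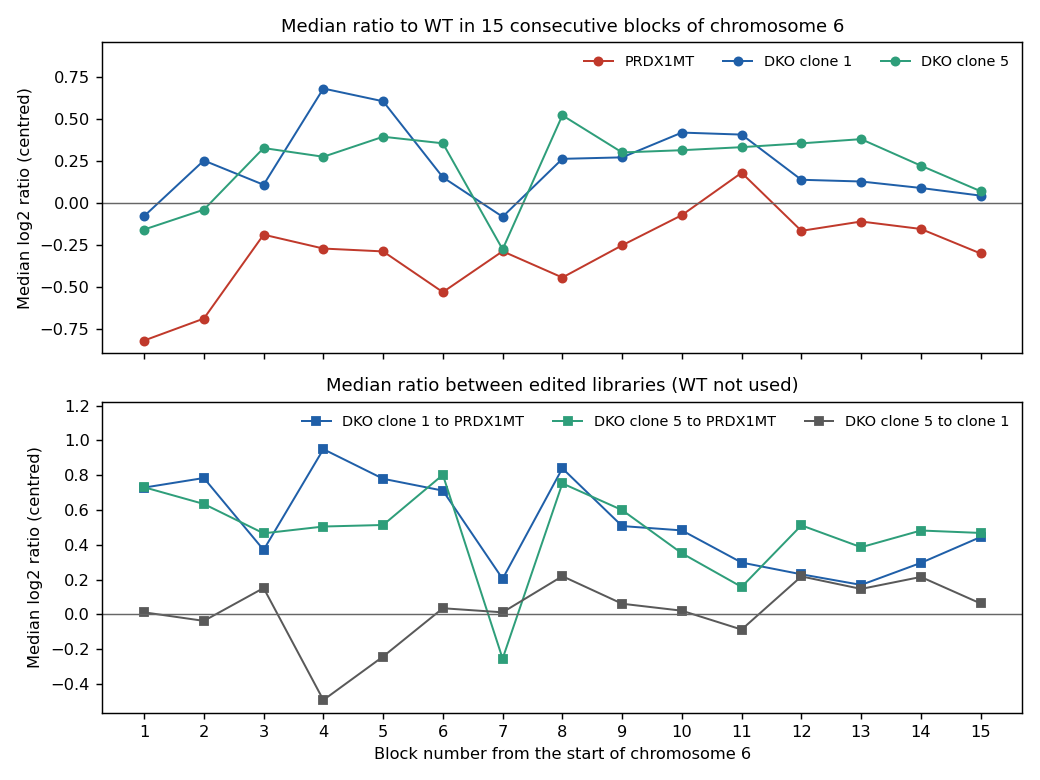
Median centred log2 ratio (vertical axes) in 15 consecutive blocks of 10 Mb of chromosome 6 (horizontal axis): above, each edited library to WT; below, ratios between edited libraries. PRDX1MT is lowest in the first block at −0.82, and clone 1 stands at 0.68 in the fourth block where clone 5 reads 0.27.

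The clones differed from each other along the chromosome although their medians over it were alike. Clone 5 against clone 1 was −0.49 in the fourth block and −0.24 in the fifth, and 0.22 in the eighth and twelfth. The single split that best divided this ratio lay between Ccdc126 and Mpp6 (49.3 to 50.1 Mb), with medians of −0.21 before it and 0.11 after it; 2 of the 18 other autosomes had a larger step. Both clones stood above PRDX1MT over most of the length: 15 of 15 blocks were above 0 for clone 1 against PRDX1MT, from 0.17 to 0.95, and 14 of 15 for clone 5 against PRDX1MT, the exception being −0.25 in the block of 11 genes. On the other autosomes 59.7% of 231 blocks were above 0 for clone 1 against PRDX1MT and 52.8% for clone 5 against PRDX1MT.

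A single best split was sought in PRDX1MT and clone 5, and on every other autosome in the same way. In PRDX1MT it fell between Capza2, a subunit of the actin capping protein, and St7 (17.6 to 17.7 Mb), with a median of −0.80 over the 51 genes before it and −0.24 over the 725 after it. The step of 0.56 was exceeded on 1 of the 18 other autosomes, chromosome 4. In clone 5 the split lay close by, between Ptprz1 and Ndufa5 (22.9 to 24.5 Mb), with −0.10 before and 0.31 after; 3 other autosomes had a larger step than its 0.41. With a minimum of 20 reads in place of 100 the best clone 5 step was 1.16. The PRDX1MT and clone 5 ratios share the WT library, so their borders are not independent of each other. With 3 segments allowed, PRDX1MT read −0.80, −0.32 and −0.14, with borders at Capza2 and at Podxl2 (88.8 Mb). Clone 1 then read 0.07, 0.71 from Gm27019 to Gpnmb (31.1 to 49.0 Mb) and 0.18, and clone 5 −0.10, 0.33 from Ndufa5 to C2cd5 (24.5 to 143.0 Mb) and −0.08. A best split exists in any series of values, and the PRDX1MT and clone 5 steps to WT were within the range of those found on the other autosomes. For clone 1 against PRDX1MT the split lay between Rab43 and Gm44423 (87.8 Mb), with medians of 0.71 before it and 0.30 after it, and this step of 0.41 was larger than on any of the 18 other autosomes, of which chromosome 15 had the largest at 0.39. For clone 5 against PRDX1MT the medians were 0.61 and 0.39 on either side of a split between Rbsn and Prickle2 (92.2 to 92.4 Mb), and 7 other autosomes had a larger step. Genes under the read minimum near a border were not used to place it.

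The levels behind these medians are shown by the most-read protein-coding gene of each block. CPM values below are scaled per library and compare 1 gene between libraries, not genes with each other. Capza2 in the second block read 128 CPM in WT, 69.2 in PRDX1MT, 122 in clone 1 and 132 in clone 5; only PRDX1MT stood apart. In RNA from bulk cells, fewer cells with a transcript and less of it per cell cannot be told apart. Calu, which encodes a calcium-binding protein of the secretory pathway, read 937, 692, 1218 and 1485 CPM in the same order, with PRDX1MT lowest and both clones above WT. Ptn in the fourth block, the secreted growth factor pleiotrophin, read 473, 161, 2802 and 1035 CPM, a log2 ratio of −1.53 (95% counting interval −1.58 to −1.49) in PRDX1MT, 2.57 in clone 1 and 1.14 in clone 5.

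Zyx, the focal adhesion protein zyxin, read 345, 278, 671 and 505 CPM in WT, PRDX1MT, clone 1 and clone 5. Fkbp9, a prolyl isomerase of the endoplasmic reticulum, read 329, 280, 634 and 485 CPM. The matrix gene Fbln2 (fibulin 2) read 857, 759, 2206 and 2360 CPM. All 3 were below WT in PRDX1MT, by log2 ratios from −0.29 to −0.15, and above it in both clones. Serbp1, an mRNA-binding protein gene, read 150, 120, 129 and 243 CPM, with clone 5 alone above WT. Mat2a, which makes the methyl donor S-adenosylmethionine, read 146, 143, 285 and 170 CPM.

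The other 7 block genes were close to WT or above it in PRDX1MT. Col1a2, a chain of type I collagen and the most-read gene of the chromosome, read 6323, 8366, 7898 and 14000 CPM, above WT in every edited library although its block had the lowest PRDX1MT median. The chemokine gene Cxcl12 read 802, 1207, 2847 and 2230 CPM and the semaphorin receptor gene Plxna1 188, 239, 424 and 371 CPM. Bhlhe40, a transcriptional repressor tied to the circadian clock, read 92.9, 242, 716 and 101 CPM, with clone 5 close to WT and clone 1 far from it. Ptms (parathymosin) read 435, 755, 634 and 898 CPM, Emp1 (epithelial membrane protein) 566, 547, 735 and 1606 CPM, and Ppfibp1 (a liprin-binding protein) 251, 251, 258 and 301 CPM. In clone 5 all 15 genes were above WT, in clone 1 13 and in PRDX1MT 6. Of all 776 genes 67.8%, 64.3% and 33.0% were above 0 in the same order. The 15 were chosen by reads summed over the 4 libraries, which favours genes that are high in an edited library. Nothing is therefore read from this count.

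**Figure D4:**
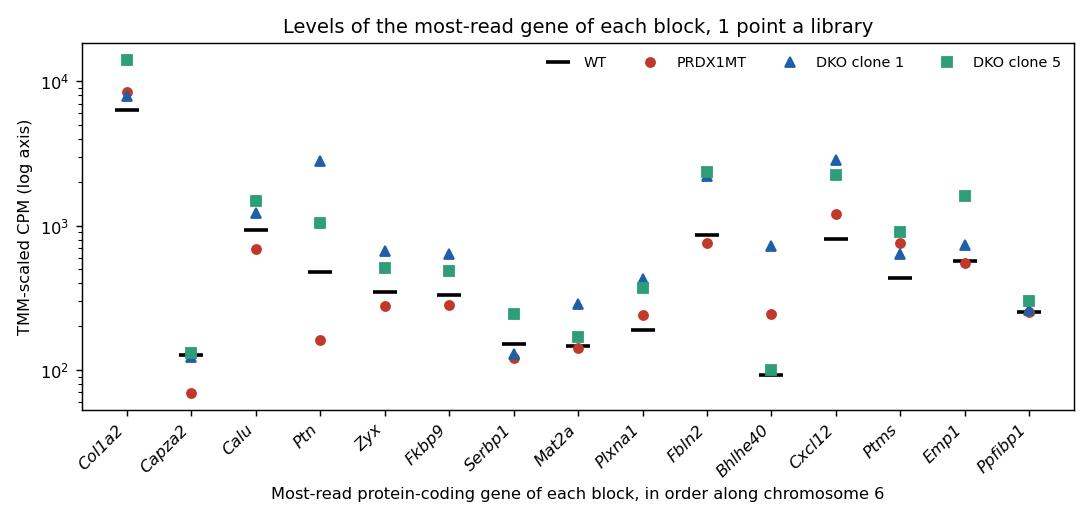
Scaled CPM (vertical log axis) of the most-read protein-coding gene in each of 15 blocks of chromosome 6, in order along the chromosome, 1 point for each of the 4 libraries. Ptn reads 473 in WT, 161 in PRDX1MT and 2802 and 1035 in the DKO clones, and Ppfibp1 at the far end differs little between libraries.

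Genes at least 2-fold from WT were counted among genes with 100 reads or more in the pair of libraries, provided that the 95% exact counting interval did not include 0. In PRDX1MT 26 of 642 chromosome 6 genes (4.05%) were higher and 87 (13.6%) lower, against 7.66% and 6.85% on the other autosomes. In clone 1 117 of 690 (17.0%) were higher and 50 (7.25%) lower, against 8.52% and 6.98%. In clone 5 73 of 658 (11.1%) were higher and 46 (6.99%) lower, against 6.05% and 7.94%. In both clones at once 19 of 646 (2.94%) were higher and 29 (4.49%) lower, against 1.73% and 3.46%. Since these contrasts chose the chromosome, nothing is read from the counts.

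The protein-coding genes highest against WT in PRDX1MT were Mfap5, Podxl, Grip2, Lmcd1 and Hk2. Mfap5, a component of elastic microfibrils, read 4.97 CPM in WT, 30.8 in PRDX1MT, 40.7 in clone 1 and 10.5 in clone 5, so every edited library was above WT; its log2 ratio in PRDX1MT was 2.64 (95% counting interval 2.43 to 2.88). Hk2, the hexokinase that starts glycolysis, read 25.3, 80.2, 300.3 and 44.9 CPM, again with WT lowest. Podxl, a sialomucin of the cell surface, read 1.01, 6.11, 1.90 and 2.09 CPM, and rests on 42 reads in WT, with a log2 ratio of 2.54 in PRDX1MT (2.11 to 3.14). Grip2 and Lmcd1 had log2 ratios of 2.42 and 2.19 in PRDX1MT, on 53 and 76 WT reads.

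Those highest in both DKO clones were Mgam, Itpr1, Vwf, Mfap5 and Hipk2. Itpr1, a calcium channel of the endoplasmic reticulum, read 15.3, 25.8, 105 and 51.4 CPM in WT, PRDX1MT, clone 1 and clone 5. Hipk2, a nuclear kinase, read 49.4, 40.4, 258 and 143 CPM. Mgam, the intestinal maltase-glucoamylase, read 1.38, 1.14, 32.4 and 6.17 CPM, with 57 reads in WT and 1140 in clone 1. Vwf, the von Willebrand factor of endothelial cells, read 0.966, 1.46, 9.55 and 2.31 CPM, while the endothelial markers Pecam1 and Cdh5 together had at most 12 reads in a library. In each of these 5 genes clone 1 was above clone 5.

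The lowest ratios belonged to genes that lost nearly all reads. Arhgef5, a guanine nucleotide exchange factor gene, had 822 reads in WT and 0 in each edited library, at least 168-fold lower in PRDX1MT, 233-fold in clone 1 and 180-fold in clone 5 when 0 is taken as 3 counts per library. Ptprz1, a receptor tyrosine phosphatase that binds pleiotrophin, had 453 reads in WT and 0 in the others, at least 92.5-fold lower. Kcna6, a voltage-gated potassium channel gene, had 194 reads and then 0, at least 39.6-fold lower. Their promoters are the first 3 printed above. Of the 579 chromosome 6 genes with at least 100 WT reads, 4 had none in PRDX1MT, 12 none in clone 1 and 8 none in clone 5, or 0.691%, 2.07% and 1.38%, against 0.142%, 0.416% and 0.483% on the other autosomes. The 3 genes at 0 in every edited library were 0.518% of chromosome 6 against 0.0662% elsewhere. A gene at 0 in all 3 edited libraries and not in WT cannot be told apart from one that only the WT culture expressed.

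Other losses differed between libraries. Casd1, which acetylates sialic acid, had 560 reads in WT, 0 in PRDX1MT, 290 in clone 1 and 214 in clone 5. Krba1 had 428, 224, 0 and 0 reads in the same order, so only the DKO clones lacked it. Ccser1, a very long gene in the block of 11 genes, had 526, 3, 0 and 0.

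Imprinted genes lay mostly below WT in every edited library, in 9 of 10 in PRDX1MT and in 8 of 10 in each clone. Of all 776 genes 520 were below 0 in PRDX1MT, while 64.3% and 67.8% were above 0 in clones 1 and 5. Of 17 listed, the 10 just counted passed the read minimum. Their median log2 ratio was −0.81 in PRDX1MT, −1.18 in clone 1 and −1.22 in clone 5. The DKO values were opposite in sign to the medians over all 776 genes. The first block, where most of these imprinted genes lie, read −0.82, −0.08 and −0.16 over its 34 genes. In PRDX1MT 5 of the 10 were at least 2-fold lower and none higher, where 13.6% of tested chromosome 6 genes and 6.85% of those elsewhere were lower. In both clones 5 were at least 2-fold lower, against 4.49% of tested chromosome 6 genes and 3.46% elsewhere: Peg10, Sgce, Pon3, Pdk4 and Mest. Mest, an imprinted gene of the hydrolase family, had 9875 reads in WT, 34 in PRDX1MT, 82 in clone 1 and 33 in clone 5, or 238, 1.34, 2.33 and 1.21 CPM. Its log2 ratio was −7.39 in PRDX1MT (−7.98 to −6.97), −6.64 in clone 1 and −7.54 in clone 5. Copg2, its antisense neighbour and a coat protein gene, read 67.5, 44.1, 69.3 and 48.8 CPM, a far smaller spread than that of Mest. Strand handling in the counting is not given in the sources used here, and reads of overlapping genes may be shared.

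The Peg10-Sgce domain near the start of the chromosome separated the libraries. Peg10, a domesticated retrotransposon gene, read 56.8 CPM in WT, 27.9 in PRDX1MT, 0.227 in clone 1 and 4.29 in clone 5. Sgce, the sarcoglycan gene next to it, read 32.9, 34.2, 2.59 and 13.1 CPM, so PRDX1MT held its WT level and both clones were lower, clone 1 more than clone 5. Pdk4, the kinase that holds back pyruvate dehydrogenase, read 41.2, 2.44, 13.01 and 6.02 CPM, and the paraoxonase gene Pon3 5.38, 0.394, 1.08 and 0.991 CPM, both lowest in PRDX1MT. Pon2 went the other way in both clones, at 17.98, 17.1, 42.6 and 27.4 CPM. Of the 10 imprinted genes, 7 lie in the first block, which holds 34 genes in all. In that block 29 of the 34 were below 0 in PRDX1MT, and 16 and 15 were above 0 in clones 1 and 5. What is particular to imprinting and what to this stretch was not tested.

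Of the nuclear-encoded mitochondrial genes 16 of 17 were below 0 in PRDX1MT, at a median of −0.60, where 520 of all 776 genes were below 0. At least 2-fold lower were 3 of the 17, a share near the 13.6% of tested chromosome 6 genes. In the same list 12 of 17 were above 0 in each DKO clone, at 0.22 and 0.30. Of all 776 genes 64.3% and 67.8% were above 0 in clones 1 and 5, for comparison with this list and the next. Immt, which shapes the inner membrane, read 115, 69.8, 142 and 180 CPM. Protein synthesis and secretion genes were below 0 in PRDX1MT in 19 of 22 (median −0.32) and above 0 in 17 and 19 of 22 in clones 1 and 5 (0.29 and 0.36), none at least 2-fold from WT in PRDX1MT or clone 5. Within that list the ribosomal protein gene Rpl32 read 358, 268, 152 and 344 CPM, lowest in clone 1, and Copg1 252, 208, 325 and 320 CPM.

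For comparison with the lists below, 520 of all 776 genes were below 0 in PRDX1MT, and 64.3% and 67.8% were above 0 in clones 1 and 5. Chromatin and transcription regulators were below 0 in PRDX1MT in 22 of 29 genes (median −0.41) and above 0 in 19 and 20 in clones 1 and 5 (0.18 and 0.22). The nucleosome remodeller gene Chd4 read 480, 469, 544 and 633 CPM, and Hnrnpa2b1, an RNA-binding protein gene, 397, 274, 415 and 486 CPM. Of the 24 growth and cell cycle genes 17 were below 0 in PRDX1MT (median −0.30), while clone 1 was divided evenly at 12 and 12 (−0.02) and clone 5 had 18 above 0 (0.45). The Wnt co-receptor gene Lrp6 read 305, 152, 293 and 242 CPM, the cyclin gene Ccnd2 279, 448, 534 and 514 CPM and the Hedgehog transducer gene Smo 175, 191, 229 and 269 CPM. Glycolysis genes were below 0 in 5 of 6 in PRDX1MT; Gapdh read 630, 549, 431 and 838 CPM and Tpi1 208, 139, 209 and 295 CPM, so the clones differed at Gapdh.

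Matrix, adhesion and cytoskeleton genes had a median of −0.19 in PRDX1MT, 0.43 in clone 1 and 0.56 in clone 5 over 29 genes. At least 2-fold higher were 4 in clone 1, 11 in clone 5 and 4 in both clones. Of all tested chromosome 6 genes 17.0% were higher in clone 1, 11.1% in clone 5 and 2.94% in both clones. Elsewhere the shares were 8.52%, 6.05% and 1.73%. Among them Cald1, the actin-binding caldesmon gene, read 580, 683, 911 and 696 CPM. Secreted signals and receptors stood at −0.04, 0.69 and 0.41 over 14 genes. Above 0 were 6 of the 14 in PRDX1MT, 13 in clone 1 and 11 in clone 5. The Hoxa genes, which set position along the body axis, had 9 of 15 past the read minimum, with medians of −0.11, 0.52 and 0.39; Hoxa3 read 23.5, 27.3, 33.7 and 59.1 CPM and Hoxa5 16.4, 13.7, 15.8 and 16.6 CPM. Of 28 genes listed for the natural killer complex only 2 passed the minimum: Clec2d, which read 25.3, 3.39, 13.2 and 17.3 CPM, and the autophagy gene Gabarapl1, at 37.6, 31.4, 89.8 and 41.8 CPM. Over all 776 genes the medians were −0.26, 0.25 and 0.29, and 33.0%, 64.3% and 67.8% of the genes were above 0.

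A short run of neighbouring genes made the highest window of clone 1. It was looked at after its values were seen. Nat8 and its relatives encode N-acetyltransferases mostly known from kidney and liver, and they lie between Alms1 and Tprkb with 2 pseudogene copies of Alms1 among them (85587531 to 85930284). The 6 Nat8 family genes had 366 reads together in WT, 63 in PRDX1MT, 3011 in clone 1 and 167 in clone 5, or 8.84, 2.48, 85.6 and 6.13 CPM, a summed level 9.70-fold higher in clone 1 than in WT. Nat8f3 had 12, 2, 492 and 16 reads, Nat8 26, 3, 515 and 10, and Nat8f1 152, 29, 952 and 54. Nat8f5, whose promoter is printed above, had 0 reads in WT, 2 in PRDX1MT, 133 in clone 1 and 1 in clone 5.

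All 6 family genes were above WT in clone 1, while 1 was in PRDX1MT and 2 in clone 5. Nat8f5, at 2 reads and 1 read against 0 in WT, is in both of the smaller counts. Nat8f7, Nat8f3, Nat8f5, Nat8 and the Alms1 pseudogenes passed the read minimum only through their clone 1 reads. Their rise in clone 1 was thus fixed in part by how genes were kept, and nothing is read from the count. The 2 Alms1 pseudogenes had 21, 5, 325 and 19 reads together. At the edges of the run the change was smaller: Alms1 had 2685, 673, 4284 and 1641 reads and Tprkb, of the tRNA-modifying KEOPS complex, 1554, 435, 2845 and 928, log2 ratios of 0.91 and 1.11 in clone 1. Ptges3-ps within the run had a log2 ratio of −0.06 in clone 1. How alike the family's sequences are was not measured here; where a read matches several members, its assignment is uncertain. Without the family, Alms1 and its pseudogenes the highest clone 1 window anywhere on the chromosome was 1.02 in place of 1.34. With all genes in, the stretch from Slc25a13 to E230016M11Rik (6.0 to 67.0 Mb) already reached 1.02. The value of 1.02 is therefore not a height left at the Nat8 run. With a minimum of 500 reads the highest clone 1 window was 0.77.

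**Figure D5:**
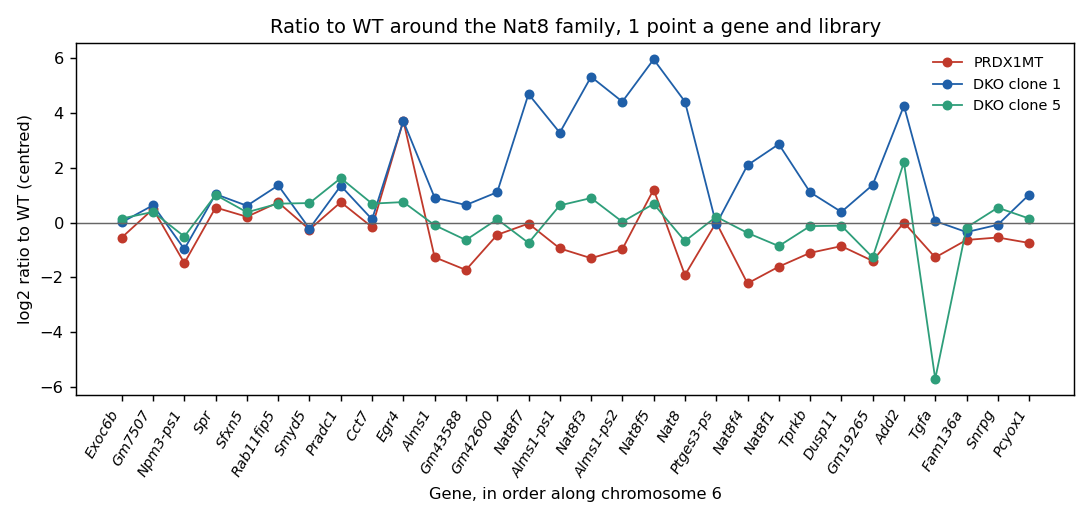
Centred log2 ratio to WT (vertical axis) of 30 neighbouring chromosome 6 genes from Exoc6b to Pcyox1 in order (horizontal axis), 1 line for each edited library. Clone 1 stands at 4.69 for Nat8f7 and 5.96 for Nat8f5 where WT had few reads or none, while the PRDX1MT and clone 5 points of the 6 Nat8 genes lie between −2.22 and 1.21.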

How the data were processed

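RNA-seq of 4 C3H10T1/2 libraries was used: WT, PRDX1MT and DKO clones 1 and 5. Total RNA was depleted of ribosomal RNA and made into stranded libraries, per the labels' protocols. The authors deposited whole-number read counts per Ensembl gene, 1 table a library; STAR 2.6.1d and mm10 are named in the submitters' processing notes, while for the counting program, the annotation and the use of strand nothing is stated in the sources used here. Depth was 27570136 to 37685798 counts. Of 54532 gene IDs, 54495 matched GENCODE M21, and the remaining 37 took up to 0.00463% of the counts in a library.

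Genes with at least 100 reads over the 4 libraries were kept (14473, of which 776 on chromosome 6). Counts were scaled by edgeR 4.0.16 TMM factors to log2 CPM with a prior count of 2, taken as a ratio, and centred on the median of 13230 genes of the other 18 autosomes, whose medians before centring were −0.02, 0.00 and −0.01. Running medians used 25 genes, blocks 10 Mb with at least 10 genes, and splits the least absolute deviation with at least 20 genes a side. The 2-fold rule needed 100 reads in both libraries together and a 95% exact binomial interval that left out 0; with 1 library in WT no test across genes was made. A 0 is bounded by 3 counts, and intervals cover counting error only. Genes were named by rule: the most-read protein-coding gene of each block, the 5 highest and 5 lowest protein-coding genes past 2-fold in PRDX1MT and in both clones, the 3 most-read of each list, the genes beside each split (that of clone 1 is not reported here), and, chosen after their values were seen, the Nat8 run, the other imprinted genes and genes at 0. The members and lists were chosen with earlier results of these data known. The scripts were tested on simulated data. Alternatives changed the read minimum, prior count, scaling (DESeq2 1.42.0 size factors, total counts), gene class, window, block, fold and clone.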

Additional observations from a re-analysis of the deposited data

How the results depend on the processing

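No alternative reversed the chromosome 6 median of any library or of a clone against PRDX1MT: it ran from −0.54 to −0.24 in PRDX1MT, 0.12 to 0.42 in clone 1 and 0.11 to 0.47 in clone 5. Total-count scaling without centring moved the other autosomes by −0.28, −0.13 and −0.17 in PRDX1MT, clone 1 and clone 5 and gave chromosome 6 medians of −0.54, 0.12 and 0.11 (DKO mean 0.12), and 0.68 and 0.65 for clones 1 and 5 against PRDX1MT. Genes without an overlapping neighbour gave −0.32, 0.14 and 0.21 (DKO mean 0.18), and 0.59 for clone 5 against PRDX1MT; 25.4% of genes and 0% of windows were then above 0 in PRDX1MT, whose highest window became −0.0062. Summed reads gave −0.39, 0.42 and 0.47 (DKO mean 0.44). Means over genes gave −0.34 in PRDX1MT, 0.19 in clone 5 and a DKO mean of 0.19. The lower class of level gave 0.41 and 0.37 for clones 1 and 5 against PRDX1MT, and the DKO mean was 0.22 in the middle and 0.31 in the upper class. Protein-coding genes alone put 29.1% above 0 in PRDX1MT.

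A minimum of 20 reads gave a DKO mean of 0.22, 64.1% of genes above 0 in clone 5 (DKO mean 62.9%) and a clone 5 split step of 1.16. A minimum of 500 put 28.5% above 0 in PRDX1MT and 67.9% in clone 1 (DKO mean 69.4%). Over the alternatives the highest window ran from −0.0062 to 0.50 in PRDX1MT, 0.66 to 2.86 in clone 1 and 0.65 to 0.84 in clone 5, and the lowest from −1.36 to −0.80, −1.34 to −0.16 and −0.98 to −0.07. Blocks of 20 Mb were above 0 in 0% of cases in PRDX1MT and 100% in clone 1, and blocks of 5 Mb in 80.4% for the DKO mean. Without Col1a2 the read shares were 3.86%, 2.75%, 5.20% and 4.84% in WT, PRDX1MT, clone 1 and clone 5 (DKO mean 5.02%), and over protein-coding genes 5.24%, 4.68%, 6.53% and 7.23% (6.88%).

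Counts past 2-fold moved by construction. Higher and lower in turn, a minimum of 20 reads gave 56 and 144 in PRDX1MT, 177 and 88 in clone 1, 113 and 82 in clone 5, and 36 and 47 in both clones. A minimum of 500 gave 14 and 42, 73 and 17, 47 and 21, and 10 and 11. Genes without overlap gave 8 and 32, 35 and 16, 27 and 19, and 10 and 13. At 1.5-fold there were 65 and 195 in PRDX1MT, 216 and 78 in clone 1, 194 higher in clone 5 and 73 higher in both. At 4-fold there were 4 and 25, 34 and 28, and 5 and 30, with 2 higher in both clones. Without clone 1 or clone 5 the count in both clones becomes that of 1 clone, from 73 to 117 higher and from 46 to 50 lower. Leaving out a clone moved the DKO median to 0.25 or 0.29. The clones' splits lie at different places, so no DKO mean of them was taken, and WT and PRDX1MT have no replicate to leave out. No paired analysis was possible because the groups share fewer than 2 replicate numbers. The alternatives without the Nat8 and Alms1 family were chosen after seeing the data. Few genes per block limit position: the block of 11 genes is the least certain.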
